A study of Mus musculus with 2 samples.

Results

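Caspases are proteases made as inactive precursors, and gasdermin D is the pore-forming protein that the inflammatory caspases cut. The genes described are Casp1, Casp2, Casp4, Casp6, Casp8, Casp9, Casp12 and Gsdmd, taken as all probe sets that the platform annotation gives to one of these symbols and no other. This gave 12 probe sets for the 8 genes, of 18193 named genes on the array. Livers of female wild-type C57BL/6 mice were compared 24 h after sham surgery or after both kidneys had undergone warm ischemia for 30 min and were reperfused, which gives acute kidney injury (AKI). All mice were 8 weeks old, and neither group carries an altered allele per the labels. Liver of 3 mice was pooled for each group and each pool went on 1 Affymetrix array, so there are 2 arrays and no replicate. No test between the groups is possible, no p-value is given, and "higher" and "lower" describe these 2 pools only.

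Inflammatory caspases are switched on by inflammasomes, protein platforms that assemble around sensors of microbial products or cell damage. Caspase-1 matures interleukin-1β and interleukin-18, and mouse caspase-4 (also called caspase-11) binds lipopolysaccharide in the cytosol. Both cut gasdermin D, whose freed amino-terminal part perforates the plasma membrane and causes pyroptosis. In apoptosis, caspase-8 starts the death receptor branch and caspase-9 the mitochondrial branch, and both feed executioner caspases such as caspase-6. Hepatocytes respond strongly to the death receptor branch, and caspase-8 also holds back necroptosis. Activity of all these proteases is set by cleavage and dimerization, which an mRNA array does not measure.

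In the AKI pool, Casp8 and Casp4 were each more than 4-fold higher and the other 6 genes differed by less than 2-fold. Casp8 differed by 2.79 and Casp4 by 2.03 on the log2 scale. Casp2 was at 0.47, Casp1 at 0.40 and Gsdmd at -0.49. Casp6 (-0.91), Casp9 (-0.37) and Casp12 (0.33) have several probe sets, which did not go one way. These differences are AKI minus sham on the scale log2(signal + 71.8), which understates those of weak probe sets, and each gene is given by its probe set with the highest mean log2 level. Of all 8 genes, 2 passed 2-fold upward and 0 downward, where 9.23% of all 18193 named genes passed it upward and 10.3% downward. A level filter kept genes whose probe set reached the array's median (225.7 sham, 231.8 AKI) on at least 1 array, and 5 of the 8 passed it. Casp4 passed only through the AKI array, where it was high, so the count among the 5 supports nothing. Among 13128 named genes past the filter, 10.4% passed 2-fold upward, 12.4% passed it downward, and 2.09% passed 4-fold upward. In the order of these genes from the highest difference down, Casp8 was at place 93.

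The only repeat measurement on these arrays is another probe set of the same gene. Over 5149 genes with several probe sets past the filter, the differences had an SD within genes of 0.70. By level class it was 0.90 in the lowest of 4 classes, which holds Casp1, Casp4, Casp9 and Casp12, then 0.74 in the class of Casp2, 0.69 in that of Casp6 and Gsdmd, and 0.66 in that of Casp8. This SD leaves out the animals. The difference of Casp8 was 4.25 times the SD of its class and that of Casp4 2.25 times. Casp6 was at 1.33 times, and the other 5 genes were below 1 SD. Ordered by difference, only the step from Casp4 to Casp2 (1.55) was larger than the class SD. Casp8 and Casp4 were 0.76 apart, which is within it.

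**Figure D1:**
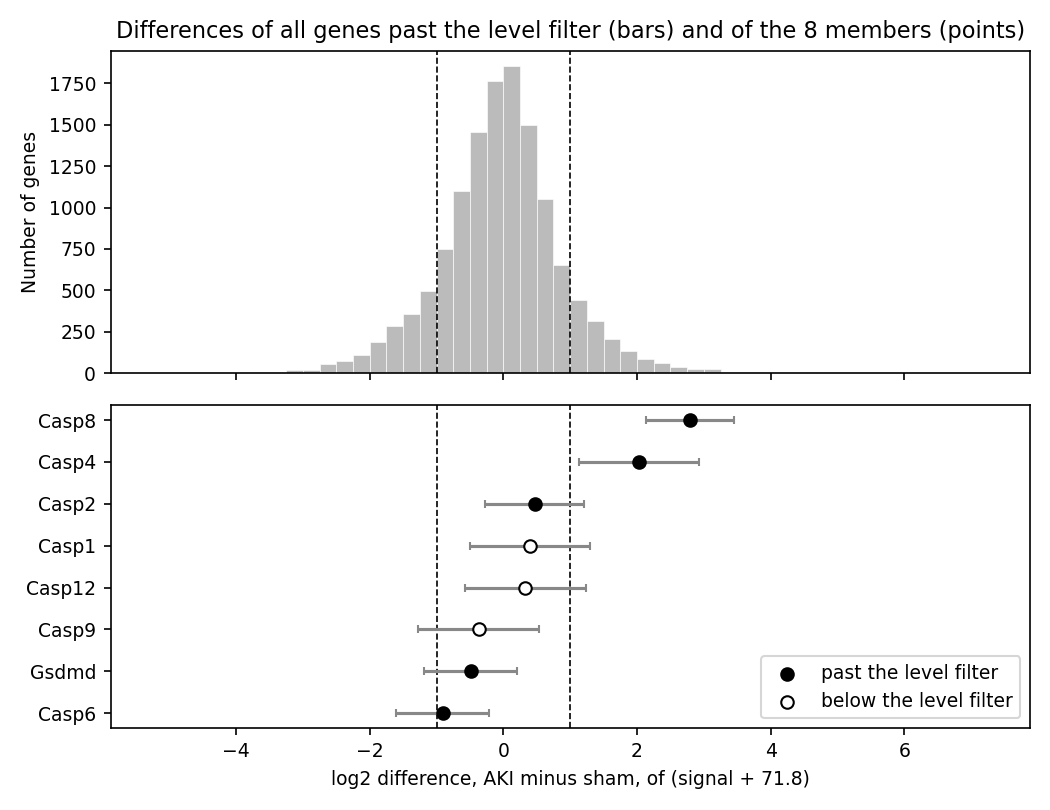
The top panel shows the number of genes (bars, 0.25 wide) by log2 difference, AKI minus sham, for the 13128 genes past the level filter, and the bottom panel the 8 caspase and gasdermin D genes on the same axis. Horizontal bars are the SD between probe sets of one gene in that level class, and dashed lines mark 2-fold; Casp8 (2.79) and Casp4 (2.03) lie right of the upper line and the other 6 genes between the lines.

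In the RefSeq gene table of GRCm38.p6, Casp1, Casp4 and Casp12 are consecutive protein-coding genes on chromosome 9, a cluster of inflammatory caspases, and only Casp4 of the 3 passed 2-fold. The 250 bases before a start site of each are shown with those of Casp8, the other gene past 4-fold, so that the letters near the genes that differed and of their neighbours can be read together. They come from RefSeq, build GRCm38.p6, run 5′ to 3′, and end at the base before the start. Capitals mark matches on either strand to GGNNTTTCC (core of the kappaB element of NF-kB), GAAANNGAA (core of the interferon-stimulated response element), TTCNNNGAA (STAT) or TTGCNNAA (C/EBP). These motifs were chosen after the sequences had been seen.
Casp4, chr9:5308599-5308848, plus strand: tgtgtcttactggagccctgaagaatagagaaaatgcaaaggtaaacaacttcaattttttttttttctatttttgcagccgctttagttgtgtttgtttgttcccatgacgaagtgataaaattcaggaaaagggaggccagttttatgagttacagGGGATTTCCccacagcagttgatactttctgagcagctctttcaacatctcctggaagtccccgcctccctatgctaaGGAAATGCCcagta
Casp8, chr1:58802252-58802501, plus strand: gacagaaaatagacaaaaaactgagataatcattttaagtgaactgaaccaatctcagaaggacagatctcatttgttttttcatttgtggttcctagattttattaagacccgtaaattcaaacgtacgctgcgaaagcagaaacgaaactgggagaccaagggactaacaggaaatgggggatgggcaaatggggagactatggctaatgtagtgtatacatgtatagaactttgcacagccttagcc
Casp1, chr9:5298267-5298516, plus strand: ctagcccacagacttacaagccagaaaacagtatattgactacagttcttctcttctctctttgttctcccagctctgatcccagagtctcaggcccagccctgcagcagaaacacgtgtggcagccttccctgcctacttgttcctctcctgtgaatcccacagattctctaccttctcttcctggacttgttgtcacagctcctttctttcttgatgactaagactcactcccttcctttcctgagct
Casp12, chr9:5345226-5345475, plus strand: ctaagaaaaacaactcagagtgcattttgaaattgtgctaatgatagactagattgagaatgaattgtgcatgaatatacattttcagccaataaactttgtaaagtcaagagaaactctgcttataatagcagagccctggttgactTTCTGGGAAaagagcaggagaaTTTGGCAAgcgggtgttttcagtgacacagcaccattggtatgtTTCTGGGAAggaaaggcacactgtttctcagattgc

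The Casp4 window held 2 matches to the kappaB letters, GGGATTTCC from 92 to 84 bases before the start and, on the other strand, GGAAATGCC from 14 to 6 bases before it. The table lists another Casp4 start 11 bases further on, whose window holds the same matches. The Casp12 window held TTCTGGGAA at 2 places and TTTGGCAA at 1. None of the 4 motifs was found in the windows of Casp8, Casp1, Casp2, Casp6 or Casp9, and the table matched 7 of the 8 genes. Among 32851 windows of the same length, 4.93% held the kappaB letters, 7.13% the interferon-response letters, 7.02% the STAT letters and 9.56% the C/EBP letters. No matches in these windows overlapped. A match is a run of letters and was not tested as a binding site.

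Casp8, the initiator of death receptor apoptosis, gave a sham signal of 988.3 and an AKI signal of 7247.3. The AKI pool stood at 7.33 times the sham pool. Both signals were well above the array medians, so the difference depended little on the pseudocount, and over the scalings tried it lay between 2.59 and 3.08. It rests on 1 probe set.

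Casp4, the cytosolic lipopolysaccharide receptor, gave a sham signal of 33.0 and an AKI signal of 355.7. The sham value lies below 71.8, the 25th percentile of the table. Without detection calls it is not known whether the sham signal is above background, so the size of the difference is uncertain and its order against Casp8 cannot be given. The measured signals are 10.8 times apart. With a pseudocount of 1 the difference of Casp4 was 3.39 and that of Casp8 2.87. Casp4 was under 4-fold with lowess centring (1.98), with centring on reference genes (1.83) and with the table median as pseudocount (1.16), and passed 2-fold in each. It also rests on 1 probe set.

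Casp1, the protease of the canonical inflammasome, had signals of 137.5 (sham) and 204.1 (AKI), below the median on both arrays. Gsdmd, the pore former downstream of Casp1 and Casp4, had signals of 832.9 and 570.4, so the AKI pool was the lower one. Its difference stayed negative in every scaling tried, from -0.69 to -0.20, and under 2-fold. Casp12, an inflammatory caspase of the same cluster that has been studied at the endoplasmic reticulum, was weak on both arrays. Its probe sets went opposite ways, from 156.0 to 215.3 (0.33) and from 181.9 to 93.7 (-0.62). Their mean difference was -0.14, so no direction can be given for Casp12.

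Among the apoptotic caspases besides Casp8, Casp2, which is activated on a platform that responds to DNA damage and extra centrosomes, had signals of 499.7 and 721.6. Casp6, an executioner that cuts nuclear lamins, was read by 2 probe sets that disagreed. The stronger went from 1297.0 (sham) to 654.5 (AKI) (-0.91), the weaker from 167.8 to 241.2 (0.39). Centring the arrays on reference genes put Casp6 past 2-fold (-1.11), and the mean of its probe sets put it at -0.26.

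Casp9, the initiator that binds the apoptosome, showed the widest disagreement among its probe sets. The probe set that stands for the gene went from 138.9 to 91.6 (-0.37), and another from 53.8 to 66.9 (0.14). The third went from 275.0 (sham) to 9.4 (AKI) (-2.09), the only one of the 12 probe sets at least 2-fold lower. If the probe set were chosen by the mean of linear signals, an alternative added after the values were seen, Casp9 would be represented by this one. Across all 45037 non-control probe sets, 9.47% passed 2-fold upward and 9.07% downward, against 2 and 1 of these 12.

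**Figure D2:**
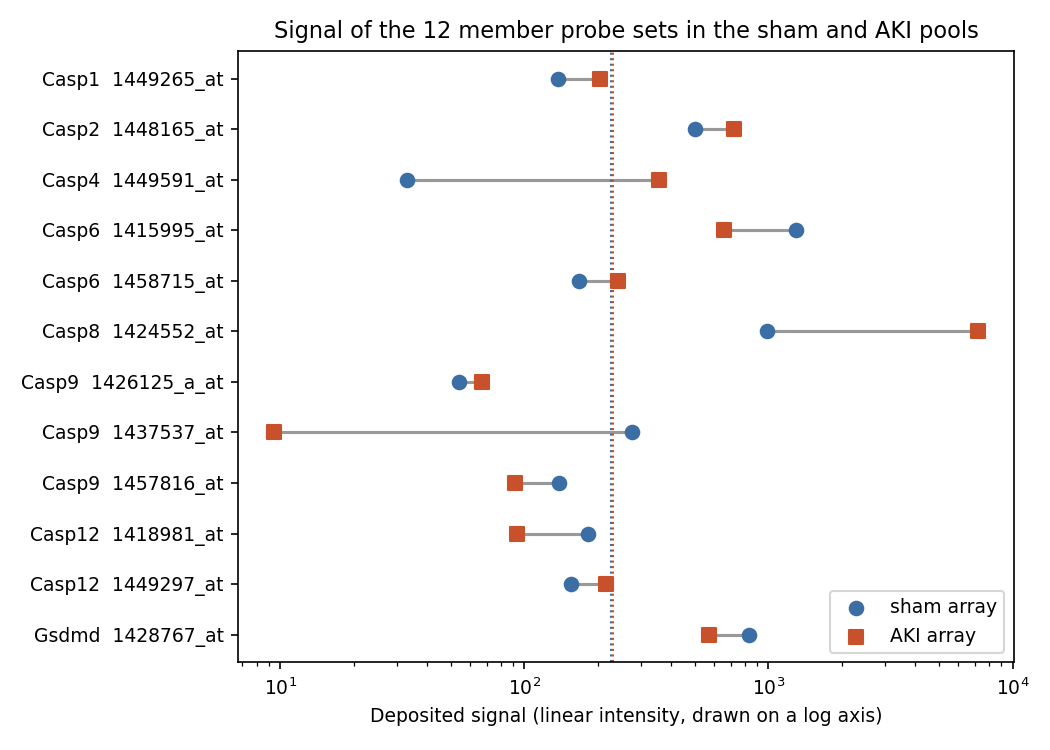
Deposited signal (linear intensity on a log axis) of each of the 12 probe sets in the sham pool (circles) and the AKI pool (squares), with dotted lines at the array medians of 225.7 and 231.8. Casp8 and Casp4 lie far to the right in the AKI pool, 1 of 3 Casp9 probe sets lies far to the left at 9.4, and the probe sets of Casp6, Casp9 and Casp12 do not go one way.

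The genes around these proteases were read from lists chosen by their known roles. Counts in these lists stand beside the shares of all named genes past the filter, 10.4% at least 2-fold higher and 12.4% lower. Some listed genes passed the filter only through the array where they were high, so the counts only describe these lists. Other scalings shift the median of all genes from -0.02 to between -0.22 and 0.28, and every median below moves with them. Of 17 listed sensors and adaptor genes of inflammasomes 12 were matched, and the 10 past the filter had a median difference of 0.04. Nlrp12 (-1.33) was at least 2-fold lower and none of the others passed 2-fold. The median was between -0.16 and 0.33 over the scalings. Pycard, the adaptor that links sensors to caspase-1, had signals of 187.2 and 438.3 (0.98), with its other probe sets at 0.26 and 0.78. Naip5, a sensor of bacterial flagellin, was at -0.90 and Nek7, which binds the sensor Nlrp3, at 0.78. Nlrp3 itself, named after its values were seen, had signals of 350.7 and 609.8 (0.69). With centring on hybridization controls, 2 genes of this list were at least 2-fold higher.

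Of 5 measured cytokines that inflammatory caspases mature or that leave dying cells, 3 were at least 2-fold higher and 0 lower, with a median of 1.34. Il33 had signals of 262.9 and 2080.4 (2.68), Il1b 521.3 and 1526.4 (1.43), and Il1a 151.1 and 492.6 (1.34). Il1a passed the filter only through the AKI array, where it was high. All 5 genes passed the filter, so leaving it out could not change the count or the median. The count was 2 with the level filter at the 75th percentile (median 0.75) and with the table median as pseudocount (0.93). Leaving out the _s_at, _x_at and _a_at probe sets also gave 2, with a median of 0.70. Il18, the other main substrate of caspase-1, was nearly equal at 1006.5 and 945.2 (-0.08), and Il1f6 was at 0.07. Guanylate-binding proteins bring lipopolysaccharide and caspase-4 together, while the related GTPase Irgm2 is known to restrain that response. Of 9 listed genes of these families 6 were matched. Of these 6, 2 were at least 2-fold lower, Irgm2 (-2.76) and Igtp (-2.42), and 0 were higher. Irgm2 had signals of 798.4 and 56.9 and passed the filter only through the sham array, where it was high. Gbp2 was at 0.85, with its other probe set at 1.20, and Gbp7 at -0.69. With a pseudocount of 1, hybridization control centring or the mean of probe sets, 1 of the 6 was at least 2-fold higher.

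Of 5 genes for rupture and repair of the membrane around gasdermin pores, 2 were at least 2-fold higher and 0 lower, with a median of 0.53. Chmp4b, a subunit of the ESCRT machinery that removes damaged membrane, had signals of 3284.1 and 10803.1 (1.70), and its other probe set was at 1.98. Vps4b, an ATPase that recycles this machinery, was at 1.66, though its other probe sets were at -0.15 and -1.41. Ninj1, which carries out the final rupture of the membrane, was at -0.34, Chmp3 at -0.93 and Vps4a at 0.53. With the mean of probe sets, 1 of the 5 was at least 2-fold higher and the median was 0.03. Leaving out the _s_at, _x_at and _a_at probe sets also gave 1, with a median of -0.15. With centring on reference genes or a pseudocount of 1, 1 of the 5 was at least 2-fold lower.

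On the death receptor side, 0 of 8 genes past the filter reached 2-fold on the log2(signal + 71.8) scale, with a median of 0.26. The receptor gene Fas came closest, at 251.4 and 572.7. These signals are 2.28 times apart, and on that scale their difference rounds to 1.00 and lies just under the threshold. Its ligand gene Fasl was at 122.9 and 262.7 (0.78), with another probe set at -0.22. With a pseudocount of 1, 2 of the 8 were at least 2-fold higher. Tnfrsf1a, a receptor for tumour necrosis factor, was at 0.71 and Traf2 at 0.56. Fadd, the adaptor that recruits caspase-8 to the receptors, also named after its values were seen, was at 1020.6 and 948.5 (-0.10). With centring on hybridization controls, 3 of the 8 were at least 2-fold higher. Another 5 genes of this list were below the filter: Ripk3, the kinase of necroptosis, at 28.4 and 205.2 (1.47), Tnfrsf10b (0.96), Tnf (-0.20), Tradd (-0.61) and Bid (-0.64). Cflar, the inactive relative that binds caspase-8, was at -0.33, with 5 probe sets that spanned -0.67 to 1.20. Cflar and the further caspases and gasdermins made a list of 13 genes, of which only 6 had a value. Besides Cflar, Casp14 was at -0.04, Gsdme at 0.18 and Gsdma2 at 0.75, and below the filter Gsdma was at -0.12 and Gsdmc2 at -0.06. With centring on hybridization controls, 1 of these relatives passed 2-fold upward.

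In the mitochondrial branch, Aifm1, a flavoprotein released from mitochondria, was the only one of 5 genes past the filter that was at least 2-fold different (-1.54), and the list median was -0.67. Htra2, a mitochondrial protease whose signals of 171.5 and 11.1 (-1.55) were below the filter, was about as much lower. Leaving out the _s_at, _x_at and _a_at probe sets moved the median to -0.07 and the count to 0. Apaf1, the scaffold that activates caspase-9, was at 223.8 and 411.2 (0.71), Cycs, the cytochrome c gene that triggers it, at 0.18, Diablo at -0.91 and Endog at -0.67. Among inhibitors of apoptosis proteins 1 of 4 was at least 2-fold higher, Birc2, a ubiquitin ligase of tumour necrosis factor signalling, at 1144.3 and 3584.1 (1.59). Birc3 was at 0.53, Xiap, which blocks caspase-9 directly, at -0.50 and Birc6 at -0.70. Xiap had 7 probe sets that spanned -0.50 to 1.14, and those of Birc6 spanned -0.70 to 0.65. The other probe set of Birc3 was at 1.02. Without the _s_at, _x_at and _a_at probe sets, 2 of these inhibitor genes were at least 2-fold higher. The partners that activate caspase-2, Cradd (-0.71) and Pidd1 (-0.11), differed by less than 2-fold.

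Substrates cut in the execution phase had a median of -0.39 over 13 genes. Of these, 0 were at least 2-fold higher and 2 lower, Lmna (-1.24), the lamin gene whose product caspase-6 cuts, and Dffa (-1.09), the inhibitor of the apoptotic nuclease. Sptan1 (-0.99) and Parp1 (-0.97) came next. The probe sets of Lmna spanned -1.64 to 0.82, and the other probe set of Dffa was at 0.42. With the mean of probe sets, 0 of the 13 were at least 2-fold lower. Scaled to the hybridization controls, 0 of the 13 passed 2-fold downward and 2 upward, and scaled to the reference genes 5 passed it downward. The share of all genes was not computed under either scaling.

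Among endoplasmic reticulum stress sensors and calpains, which have been linked to caspase-12, 4 of 9 genes were at least 2-fold higher and 1 lower, with a median of 0.64. The chaperone gene Hspa5 was at 2.71, the sensor kinase gene Eif2ak3 at 1.87, Ddit3 at 1.24 and Xbp1 at 1.18, while Ern1 was at -1.65 with probe sets up to 0.29. The probe sets of Eif2ak3 spanned -0.24 to 1.87. Leaving out the _s_at, _x_at and _a_at probe sets gave 2 genes at least 2-fold higher and a median of 0.27. The mean of probe sets gave 0 lower. Of 6 listed transcription factors known to act on caspase or gasdermin D genes, 4 were matched. Irf2 was at least 2-fold lower, with signals of 595.4 and 56.2 (-2.38) on a single probe set. It passed the filter only through the sham array, where it was high. Cebpb was at 0.84, Irf1 at -0.77 and Irf8 at 0.20.

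**Figure D3:**
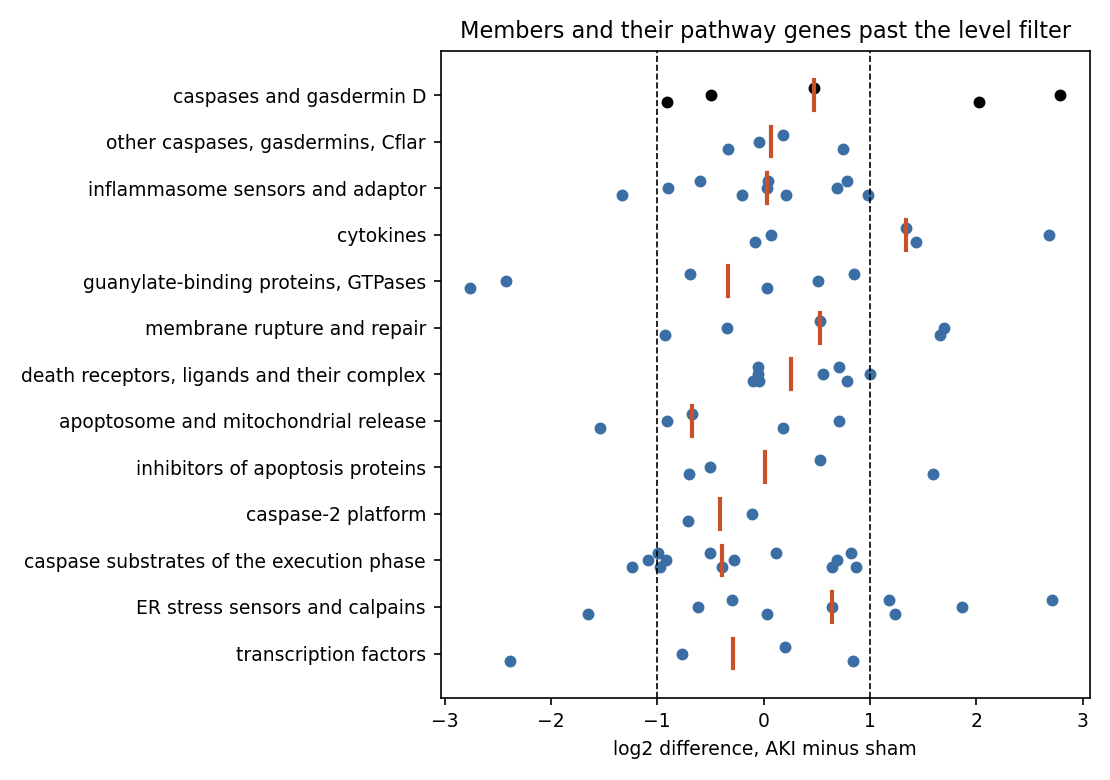
Each point is 1 gene past the level filter, placed by its log2 difference, AKI minus sham, with the caspase and gasdermin D genes in black, the pathway lists in blue, list medians as vertical bars and 2-fold as dashed lines. The cytokine points reach from -0.08 to 2.68 with a median of 1.34, and most of the other lists hold genes on both sides of 0.

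Several of these genes are expressed in leukocytes as well as in hepatocytes, and in bulk tissue fewer cells of a type and less RNA per cell cannot be told apart. All 6 hepatocyte markers passed the filter, 5 with a negative and 1 with a positive difference, and none reached 2-fold. The defining gene Alb was at 124515.9 (sham) and 98303.4 (AKI). Hnf4a differed the most (-0.83), and Tat went the other way (0.56). Of 8 Kupffer cell and macrophage markers, 1 was at least 2-fold higher (Marco) and 2 lower (Clec4f and Cd5l). Their summed signal was 12852.2 (sham) and 8189.7 (AKI). All 8 passed the filter, Marco only through the AKI array, where it was high, so the count of 1 higher supports nothing. Of 10 neutrophil markers 8 were matched and 6 passed the filter, 3 of them at least 2-fold higher. S100a8 and S100a9 passed it only through the AKI array, where they were high, so this count supports nothing. Of all named genes past the filter, 10.4% were at least 2-fold higher and 12.4% lower. The summed signal of the 8 matched neutrophil markers was 2906.8 and 7644.1, and these sums differed mostly through the same S100a8 and S100a9. S100a8 was at 161.4 and 2023.4 and S100a9 at 191.2 and 1666.6, whereas Mpo was at 438.1 and 426.1 and Cxcr2 at 162.2 and 113.1. Ngp was at 1.12, Elane at 0.76 and Ltf at 0.19. The table holds no value of 0, so absence cannot be read from it, and Camp, at 18.1 and 44.4, lay below the 25th percentile on both arrays. By the probe set that stands for each gene, all 3 matched monocyte markers had a higher signal in the AKI pool. Plac8 was at 0.87, Ccr2 at 0.47 and, below the filter, Chil3 at 1.52, and their summed signal was 1284.7 and 2476.6. The other probe sets of Ccr2 were all lower in the AKI pool (-0.68, -1.28 and -0.04), so no direction can be given for Ccr2. T and NK cell markers summed to 1903.7 and 3121.1, mostly through 1 Cd8a probe set (1229.3 and 2221.2) whose companions lay between -0.21 and 0.39. Nkg7 was at 1.27, and Cd3d (-0.22), Cd3e (-0.09) and Cd4 (-0.11) were near 0. The part of these cells in the values of Casp4, Casp8 and Casp1 was not tested.

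**Figure D4:**
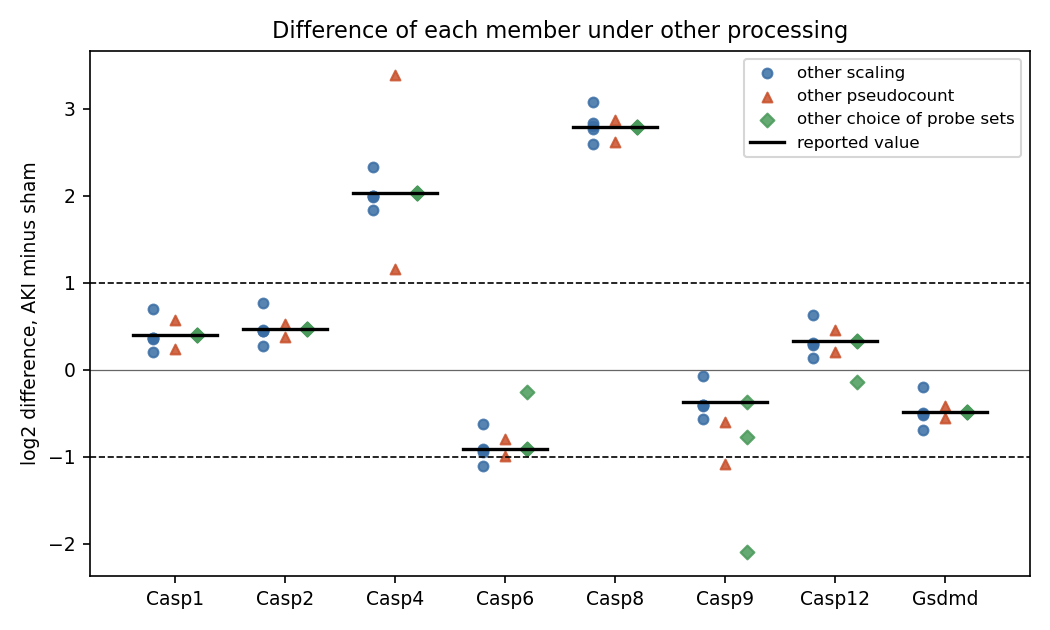
Log2 difference, AKI minus sham, of each of the 8 genes as reported (black line) and with another scaling (circles), pseudocount (triangles) or choice of probe sets (diamonds), with dashed lines at 2-fold. Casp8 stays between 2.59 and 3.08 and Casp4 between 1.16 and 3.39, while Casp9 reaches -2.09 and Casp12 changes sign with the choice of probe sets.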

How the data were processed

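Total RNA of pooled liver (100 mg of frozen tissue from 3 mice a group) was labelled from 8 ug and hybridized to 1 Affymetrix array per group, per the labels. The deposited values are signal intensity per probe set on a linear scale, and the mean without the lowest and highest 2% of probe sets is 500.00 on both arrays, so the authors had scaled them to a common target, which removes any difference in total mRNA. The sources used here do not give the software, and no detection calls were used. The number of arrays limits the precision.

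Of 45037 non-control probe sets, 34945 had 1 gene symbol in the platform annotation. Differences were taken as log2(signal + 71.8), AKI minus sham. The genes and lists were chosen with earlier results of these data known. All 8 genes were named with every probe set, and each pathway list by its up to 4 largest absolute differences past the level filter, or in full for counts of 5 or fewer. Genes below the filter and those marked as such were named after their values were seen. In all, 11 alternatives were planned, on scaling (18 hybridization controls or 10 reference genes among them), filter, pseudocount and probe sets, and 1 was added. The calculation was tested on simulated data. Python 3.11.15 was used with pandas 2.3.3, numpy 2.4.6, statsmodels 0.14.6, scipy 1.17.1 and matplotlib 3.10.9.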

Additional observations from a re-analysis of the deposited data

How the results depend on the processing

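The count of 2 genes at least 2-fold higher held under 11 of the 12 alternatives. It was 1 with the level filter at the 75th percentile, which removes Casp4. Casp8 and Casp4 have 1 plain _at probe set each, so the alternatives on the choice of probe sets could not lower this count. Nor could leaving out the filter. Apart from the one without the filter, no share of all genes past 2-fold was computed under the alternatives. The count of 0 at least 2-fold lower became 1 with centring on reference genes (Casp6), with the table median as pseudocount (Casp9, at -1.08) and with the probe set chosen by linear mean (Casp9). The median over the genes past the filter was 0.47 and became -0.01 with the stricter filter, with the table median as pseudocount and with the choice by linear mean, since each changes which genes are counted. Casp4 moved to 3.39 with a pseudocount of 1, and Casp9 to -2.09 with the choice by linear mean, the alternative added after the data were seen. That probe set was at -4.73 with a pseudocount of 1. In the pathway lists, 31 of the recomputed counts changed by over 1.5 times and 231 did not, and 21 medians moved while 110 did not. With the _s_at, _x_at and _a_at probe sets, which may match several transcripts, left out, medians changed sign for membrane repair (-0.15), the death receptors (-0.04) and the transcription factors (0.52). No paired analysis was possible because each group has 1 array, and no array could be left out. Signals below the array median, as for Casp1, Casp9, Casp12 and the sham value of Casp4, have no known detection limit here.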
